A study of Homo sapiens with 18 samples.

Results

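The small RNAs inside ATG12-/- cells were compared with those inside ATG7-/- cells. Both are knockout clones of HEK293T, a human embryonic kidney cell line that carries the SV40 large T antigen. The comparison uses 6 of the 18 libraries in the series, 3 of ATG12-/- cells (clone D9) and 3 of ATG7-/- cells (clone F2), chosen by their labels alone and over all 2462 small RNA features of the deposited table. Wild-type HEK293T cells, also 3 libraries, are given beside them, and all cells had spent 24 h without serum before RNA was taken. The labels call the 3 libraries of a group biological replicates. Each genotype is 1 clone, so a property of the clone and an effect of the missing gene cannot be told apart, and p-values measure the spread between cultures of 1 clone. The ATG7 and ATG12 mRNAs are not analysed here, so the knockout labels were not checked against the genes they name.

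ATG7 is the enzyme that activates both ATG12 and the LC3 family of ubiquitin-like proteins. ATG12 is joined to ATG5, and the joined pair then helps attach LC3 to membrane lipids, the step that builds the autophagosome. Loss of either gene blocks that attachment, so a comparison of the clones asks where cells lacking different parts of the same pathway differ in their small RNAs. Small nucleolar RNAs (snoRNAs) guide the chemical modification of ribosomal RNA and mostly lie in introns of other genes. MicroRNAs guide the silencing of mRNAs through their seed, bases 2 to 8. Transfer RNAs (tRNAs) carry amino acids to the ribosome.

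The microRNAs on which the results below turn are shown first, grouped by shared seed, because members of a seed group did not always move together. The sequences are RefSeq mature microRNAs (GRCh38.p14), 5′ to 3′, with the seed in capitals. RefSeq held a mature sequence for 98 of the 110 microRNAs tested. The seed of miR-221-3p and miR-222-3p is shared by no other tested microRNA, and both genes lie on the minus strand of the X chromosome, at chrX:45746180-45746202 and chrX:45747036-45747056, within MIR222HG. The miR-17-92 cluster lies in MIR17HG, on the plus strand of chromosome 13, with miR-17-5p at chr13:91350618-91350640 and miR-92a-3p at chr13:91351361-91351382. miR-19b-3p and miR-92a-3p have another gene copy on the X chromosome.
miR-221-3p: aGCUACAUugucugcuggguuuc
miR-222-3p: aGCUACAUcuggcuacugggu
miR-19a-3p: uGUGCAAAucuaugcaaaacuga
miR-19b-3p: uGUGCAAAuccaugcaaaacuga
miR-17-5p: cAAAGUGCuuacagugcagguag
miR-20a-5p: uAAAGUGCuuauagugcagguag
miR-18a-5p: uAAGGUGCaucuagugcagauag
miR-92a-3p: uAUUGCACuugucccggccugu
let-7a-5p: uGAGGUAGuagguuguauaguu
let-7b-5p: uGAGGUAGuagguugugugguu
let-7e-5p: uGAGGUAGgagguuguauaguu
miR-196a-5p: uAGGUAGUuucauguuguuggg
miR-196b-5p: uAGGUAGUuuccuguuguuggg
miR-24-3p: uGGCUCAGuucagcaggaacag
miR-126-5p: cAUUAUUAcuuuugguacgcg

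The vault RNAs and a set of snoRNAs follow, from GENCODE release 29 transcripts (GRCh38). The vault RNAs show how alike in sequence members can be whose differences between the clones were unlike. Capitals mark the first 29 bases, which all 3 share. They lie side by side on the plus strand of chromosome 5, VTRNA1-1 at chr5:140711275-140711373, VTRNA1-2 at chr5:140718925-140719013 and VTRNA1-3 at chr5:140726158-140726246.
VTRNA1-1: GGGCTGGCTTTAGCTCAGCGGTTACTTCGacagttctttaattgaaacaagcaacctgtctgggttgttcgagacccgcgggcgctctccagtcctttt
VTRNA1-2: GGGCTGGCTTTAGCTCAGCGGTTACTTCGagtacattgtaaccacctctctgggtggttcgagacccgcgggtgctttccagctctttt
VTRNA1-3: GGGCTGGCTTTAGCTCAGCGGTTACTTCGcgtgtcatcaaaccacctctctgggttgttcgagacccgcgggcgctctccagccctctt

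Of the C/D box snoRNAs, which guide methylation of ribose, the 4 hosted by RPL23A on the plus strand of chromosome 17 (chr17:28720550-28723753 from the first to the last) are shown because every one of them was lower in ATG12-/- cells. HBII-99B (SNORD12B, chr20:49280319-49280409, plus strand) is shown as an abundant one, and U102 (SNORD102, chr13:27255064-27255135, plus strand) with the H/ACA box snoRNAs ACA27 (SNORA27, chr13:27255401-27255526, plus strand) and ACA31 (SNORA31, chr13:45337480-45337609, minus strand) as the snoRNAs of chromosome 13. H/ACA box snoRNAs guide the conversion of uridine to pseudouridine. Capitals mark TGATGA (a C box match) where the sequence holds it, the last CTGA (a D box match), or the last ACA of an H/ACA RNA. On the transcript strand, TGATGA was in 67.8% and CTGA in 99.2% of the 121 tested C/D box snoRNAs with 1 transcript in GENCODE, and ACA stood in the last 8 bases of 78.0% of 91 H/ACA box snoRNAs. The motifs did not overlap in the sequences printed. TGATGA was in 28 of the 49 such C/D box snoRNAs lower in ATG12-/- cells and in 54 of the other 72, whose median lengths were 78.0 and 79.5 bases.
mgh18S-121: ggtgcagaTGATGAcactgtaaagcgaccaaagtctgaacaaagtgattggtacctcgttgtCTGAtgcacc
Z17B: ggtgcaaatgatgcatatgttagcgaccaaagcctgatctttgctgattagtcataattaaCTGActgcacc
U42A: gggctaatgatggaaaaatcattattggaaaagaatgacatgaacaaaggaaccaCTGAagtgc
U42B: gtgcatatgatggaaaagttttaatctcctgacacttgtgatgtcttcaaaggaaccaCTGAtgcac
HBII-99B: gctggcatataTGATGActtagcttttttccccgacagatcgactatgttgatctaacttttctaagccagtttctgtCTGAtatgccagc
U102: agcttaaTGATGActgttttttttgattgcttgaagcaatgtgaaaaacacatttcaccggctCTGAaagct
ACA31: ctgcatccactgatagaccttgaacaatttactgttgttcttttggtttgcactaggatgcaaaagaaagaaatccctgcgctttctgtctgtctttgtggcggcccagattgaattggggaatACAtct
ACA27: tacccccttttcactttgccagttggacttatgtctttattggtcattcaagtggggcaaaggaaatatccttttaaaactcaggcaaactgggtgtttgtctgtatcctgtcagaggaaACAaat

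Values are normalised reads, which are reads divided by 1 size factor per library as deposited. The reads assigned to features numbered 1229796 to 1804089 in ATG12-/-, 1188388 to 1257734 in ATG7-/- and 1396337 to 1606102 in wild-type cell libraries. The ATG7-/- libraries were the least alike: across features, log2 values of replicate pairs had a Pearson's r of 0.981 to 0.986, against 0.990 to 0.994 for ATG12-/- and 0.992 to 0.993 for wild-type cells. All 8 microRNAs listed as markers of the embryonic kidney line were detected, among them members of the miR-17-92 and miR-196 groups described below, with summed levels of 2552 to 2868 in ATG12-/- and 2902 to 3220.2 in ATG7-/- cells. Of the markers of other cell types, the 3 fibroblast microRNAs summed to 0 in ATG12-/- and to at most 1.43 in ATG7-/- cells, with 2 of 3 at 0 in all 6 libraries. The liver microRNA miR-122-5p reached at most 0.824. The 6 blood microRNAs in the table summed to 1.91 to 2.10 in ATG12-/- and 4.91 to 11.4 in ATG7-/- cells, with 2 at 0 throughout. Most of this was miR-486-5p, and the others held at most 1 read in any of the 6 libraries. Those of neurons summed to 23.1 to 30.9 and 22.1 to 33.8, nearly all of it miR-128-3p.

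Of 853 features tested, 48 were higher and 123 lower in ATG12-/- than in ATG7-/- cells, and 682 were not called. A call is an adjusted p under 0.05 from limma's moderated test on log2 (normalised reads + 1), with Benjamini-Hochberg adjustment over the 853. That is 20.0% called, with 5.63% called higher and 14.4% called lower. The values of the compared groups did not overlap for 34.2% of features. Every difference below is ATG12-/- minus ATG7-/- on the log2 scale with its standard error (SE) unless another contrast is named.

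The split between higher and lower depended on the scaling. Higher calls made up 28.1% of all calls with the deposited size factors, 53.1% with library totals (78 higher, 69 lower), 47.3% with TMM factors from all features (71 and 79) and 80.9% with TMM factors from microRNAs (127 and 30). edgeR's quasi-likelihood test on recovered whole reads called 73 higher and 89 lower, and DESeq2 71 and 120. The median of all features was -0.05, and moved up by 0.14 with library totals and by 0.27 with microRNA factors. No called feature changed sign under these 5 other scalings and tools, and 78 features (9.14%) kept their call and direction under all of them, the 48 higher ones and 30 of the 123 lower ones. In a fit of the 6 knockout libraries alone 22 were higher and 70 lower, and of the features named below miR-17-5p, miR-18a-5p, miR-92a-3p, miR-125a-5p, RNY5, U4, U42A, HBI-43, tRNA-Glu-CTC-1-3, tRNA-Glu-TTC-4-2 and tRNA-Lys-CTT-2-2 lost their call, with adjusted p of 0.0551 to 0.0948. The number of calls fell to 79 without ATG12-/- replicate 1, 86 without ATG7-/- replicate 2 and 100 without ATG12-/- replicate 3.

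**Figure D1:**
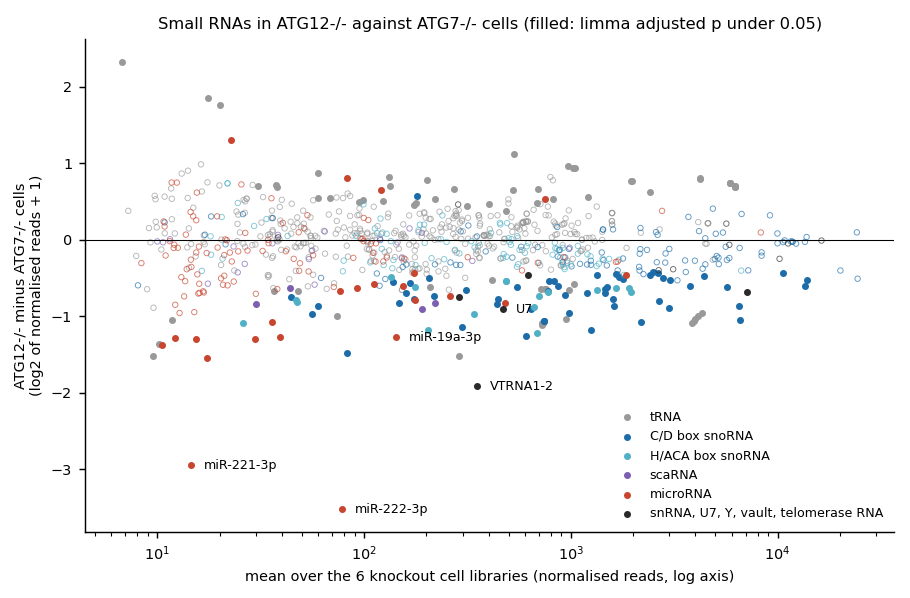
Each point is 1 of 853 small RNAs, with its mean level over the 6 knockout cell libraries (x, normalised reads, log axis) and the ATG12-/- minus ATG7-/- difference (y, log2). Filled points have a limma adjusted p under 0.05, and colours give the RNA class: snoRNA and microRNA calls lie mostly below 0, tRNA calls on both sides, and miR-222-3p and miR-221-3p lie lowest.

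The difference of largest size was in a pair of microRNAs. miR-222-3p stood at 14.8, 15.3 and 6.29 normalised reads in the ATG12-/- libraries and at 124, 119 and 189 in the ATG7-/- libraries. Wild-type cells held 111, 117 and 123, so ATG12-/- cells were far below both other groups and no values overlapped between the knockouts. The difference was -3.52 (SE 0.27, limma adjusted p = 4.65e-06), an 11.5-fold lower level. miR-221-3p, from the same primary transcript and with the same seed, was at 1.93, 2.39 and 3.50 in ATG12-/- cells, at 21.4, 31.9 and 26.4 in ATG7-/- cells and at 16.6, 17.2 and 23.4 in wild-type cells. It too was low in ATG12-/- cells alone, by -2.94 (SE 0.29, limma adjusted p = 4.11e-05), and rested on 13 reads in the ATG12-/- libraries against 102 in the ATG7-/- libraries. Against wild-type cells, which share libraries with this contrast, miR-222-3p was at -3.25 (SE 0.27) in ATG12-/- and 0.27 (SE 0.27) in ATG7-/- cells. miR-221 and miR-222 are known for silencing the cell cycle inhibitor CDKN1B (p27) and the receptor KIT. Both calls held under every alternative tried except the higher filter, under which miR-221-3p was not tested.

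Of the 110 microRNAs tested, 4 were higher and 19 lower in ATG12-/- cells, with a median of -0.24 beside -0.05 over all features. The lower ones are 17.3% of those tested, near the 14.4% called lower over all features. With library totals 9 were lower, with TMM factors from all features 12, with no filter on low values 12 and in the fit of knockout libraries alone 11. With microRNA factors the counts were 10 higher and 8 lower and the median was 0.03. Without ATG12-/- replicate 3 the lower microRNAs numbered 9, without ATG7-/- replicate 2 they numbered 11, and without ATG12-/- replicate 1 they numbered 12.

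The miR-17-92 cluster, which promotes cell proliferation and is amplified in some lymphomas, was lower in ATG12-/- cells. Of its 8 tested mature forms 5 were called lower and none higher, with a median of -0.77, beside 14.4% called lower over all features. The groups did not overlap for 7 of the 8, beside 34.2% over all features. The number called was 2 without ATG12-/- replicate 1, 1 without ATG12-/- replicate 3 and 2 without ATG7-/- replicate 2, and it was 1 with microRNA factors. It was 2 with library totals, with no filter on low values and with knockout libraries alone, and 3 with TMM factors from all features or by edgeR. miR-19a-3p was at 84.3, 93.0 and 67.1 in ATG12-/- and at 134.3, 251 and 226 in ATG7-/- cells. Wild-type cells held 97.5, 79.8 and 59.1, so here it was the ATG7-/- libraries that stood above the other groups. The difference was -1.27 (SE 0.24, limma adjusted p = 0.00353) and was called under every alternative. miR-19b-3p, with the same seed, was at 364, 397 and 275 against 442, 677 and 742, a difference of -0.83 (SE 0.21, adjusted p = 0.0176). It lost its call without ATG7-/- replicate 2 (-0.75, adjusted p = 0.0548) and without ATG12-/- replicate 3 (-0.67, adjusted p = 0.0735), and also with library totals (-0.69, adjusted p = 0.0614) and with microRNA factors (-0.55, adjusted p = 0.0811). The most abundant form, miR-92a-3p, was at 1438, 1643 and 1613 in ATG12-/- and 2074, 2102 and 2257 in ATG7-/- cells.

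That difference in miR-92a-3p was -0.46 (SE 0.13, limma adjusted p = 0.0301), all ATG7-/- values lying above all ATG12-/- values. miR-17-5p was at -0.58 (SE 0.17) and miR-18a-5p at -1.30 (SE 0.36), and miR-20a-5p, at 6.29 to 9.06 against 10.7 to 25.4, was not called (-0.96, SE 0.39, adjusted p = 0.103). The calls of miR-17-5p, miR-18a-5p and miR-92a-3p were weak: with microRNA factors their adjusted p was 0.235, 0.0521 and 0.438, and without ATG12-/- replicate 1 it was 0.143, 0.109 and 0.135. Without ATG12-/- replicate 3 it was 0.0658, 0.0693 and 0.0735, and without ATG7-/- replicate 2 it was 0.0584, 0.094 and 0.0583. Of the 6 tested forms of the paralog clusters miR-106a-363 and miR-106b-25, none was called, and miR-93-5p, which has the seed of miR-17-5p, was at -0.17.

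The other RNAs of chromosome 13 were lower as well. Of the tested features other than tRNA genes, 9 lay on chromosome 13 alone, 6 of them microRNAs of the cluster and 3 snoRNAs, and 6 of the 9 were called lower, with a median of -0.96. This was the lowest median of any chromosome, and the groups did not overlap for 8 of the 9. Over all features 14.4% were called lower and 34.2% did not overlap. ACA31, in an intron of TPT1, was at 364, 399.8 and 475 in ATG12-/- cells, at 1117, 877 and 885 in ATG7-/- cells and at 555, 532 and 532 in wild-type cells. Its values were thus highest in ATG7-/- cells in every library, with a difference of -1.22 (SE 0.15, limma adjusted p = 0.000194). ACA27 and U102, in introns of RPL21, were at -0.97 (SE 0.14, adjusted p = 0.000664) and -0.89 (SE 0.14, adjusted p = 0.00133). Their ATG7-/- values were 376 to 507 and 3372 to 4554, and their ATG12-/- values 207 to 247 and 2037 to 2103.

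The 3 snoRNAs were called under every alternative. Against wild-type cells the median of the 9 features was 0.84 in ATG7-/- and -0.12 in ATG12-/- cells. With microRNA factors the chromosome median stayed negative, at -0.70, and 4 of the 9 were called. Without ATG12-/- replicate 1, and likewise without ATG12-/- replicate 3 or with knockout libraries alone, 4 of the 9 were called. Chromosome 13 was singled out after the medians of all chromosomes were seen.

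Members of the let-7 family, which share a seed and restrain growth-promoting genes such as HMGA2 and LIN28, moved in opposite directions. let-7e-5p was at 203, 192 and 189 in ATG12-/- and 339, 307 and 326 in ATG7-/- cells, with wild-type cells at 169, 157 and 196.4. The ATG7-/- libraries were the high ones, and the difference was -0.73 (SE 0.13, limma adjusted p = 0.0027). let-7b-5p was at 156, 142 and 145 in ATG12-/- and 115, 82.7 and 85.7 in ATG7-/- cells, with wild-type cells at 36.9, 36.3 and 32.9. Its order was ATG12-/- above ATG7-/- above wild type with no overlap, and the difference was 0.65 (SE 0.16, adjusted p = 0.0126), losing its call without ATG7-/- replicate 2 (0.57, adjusted p = 0.0527) and without ATG12-/- replicate 1 (0.61, adjusted p = 0.0572). The most abundant member, let-7a-5p, was at 3167, 3015 and 3187 against 2366, 2471 and 2368, which did not overlap but missed the threshold (0.38, SE 0.13, adjusted p = 0.0547). It was called as higher with each other scaling, with both count tests and without ATG7-/- replicate 3. Of 8 tested let-7 forms 1 was called higher and 1 lower, with a median of -0.29.

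miR-125a-5p, which is encoded beside let-7e in an intron of SPACA6 on chromosome 19, was at -0.66 (SE 0.19, limma adjusted p = 0.0286). It was called with no scaling but the deposited one, and lost its call without ATG7-/- replicate 2 (-0.54), ATG7-/- replicate 3 (-0.57), ATG12-/- replicate 2 (-0.58) or ATG12-/- replicate 3 (-0.66). The HOX cluster microRNAs miR-196a-5p and miR-196b-5p, which target HOX genes themselves and share a seed, were both higher. miR-196a-5p was at 861, 898 and 893 in ATG12-/- and at 572, 616 and 641 in ATG7-/- cells, a difference of 0.54 (SE 0.13, adjusted p = 0.0109). miR-196b-5p was at 102.3, 116 and 98.6 against 55.2, 64.7 and 60.0, a difference of 0.81 (SE 0.15, adjusted p = 0.00351). ATG12-/- values exceeded all ATG7-/- and all wild-type values for both, and both calls held under every alternative. miR-10a-5p, of the same clusters, was at 0.32 (SE 0.23, adjusted p = 0.332).

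Several of the lower microRNAs are known from other tissues, and their ATG7-/- values were the high ones. miR-126-5p, from an intron of EGFL7 and typical of endothelium, was at 21.2, 21.0 and 23.8 in ATG12-/-, at 35.4, 63.1 and 71.4 in ATG7-/- and at 21.0, 13.9 and 14.6 in wild-type cells. The difference was -1.27 (SE 0.26, limma adjusted p = 0.0064), and together with miR-126-3p the endothelial markers summed to 25.8 to 28.7 in ATG12-/- and 49.4 to 80.7 in ATG7-/- cells. miR-1-3p, the muscle microRNA, was at 5.15, 9.54 and 9.79 against 14.8, 37.7 and 27.1, a difference of -1.54 (SE 0.37, adjusted p = 0.012). Wild-type cells held 5.28 to 8.92. miR-1-3p thus passed the minimum of 10 normalised reads in 3 libraries only through the ATG7-/- libraries, where it was high. It lost its call without ATG7-/- replicate 2 (-1.25, adjusted p = 0.0542) and without ATG12-/- replicate 1 (-1.28, adjusted p = 0.0572), and the other muscle marker in the table, miR-133a-3p, was at 0 in all 6 libraries. The blood marker sums given above moved the same way, but they were mostly miR-486-5p, at 2, 4 and 2 reads against 8, 6 and 16. The part of other cell types in these results was not tested. miR-24-3p was at 122, 120.2 and 145 against 208, 257 and 207 (-0.79, SE 0.15, adjusted p = 0.00424), and miR-425-5p at 15.4, 22.9 and 12.6 against 38.7, 45.04 and 42.8 (-1.30, SE 0.23, adjusted p = 0.00257). These names, miR-24-3p and miR-425-5p, were picked after their values were seen. miR-23a-3p, encoded beside a copy of miR-24, was at -0.63 (SE 0.15, adjusted p = 0.0115), and lost its call without ATG12-/- replicate 3 (-0.57, adjusted p = 0.0506), with library totals (-0.50, adjusted p = 0.0667) and with microRNA factors (-0.36, adjusted p = 0.125).

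miR-4485-3p was the highest-fold microRNA in the other direction. Its sequence also lies in mitochondrial ribosomal RNA, from which its reads cannot be separated here. It was at 28.3, 32.9 and 35.7 in ATG12-/-, at 18.1, 8.19 and 12.8 in ATG7-/- and at 29.9, 24.4 and 32.9 in wild-type cells. The ATG7-/- libraries were the low ones, with a difference of 1.30 (SE 0.26, limma adjusted p = 0.00563).

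**Figure D2:**
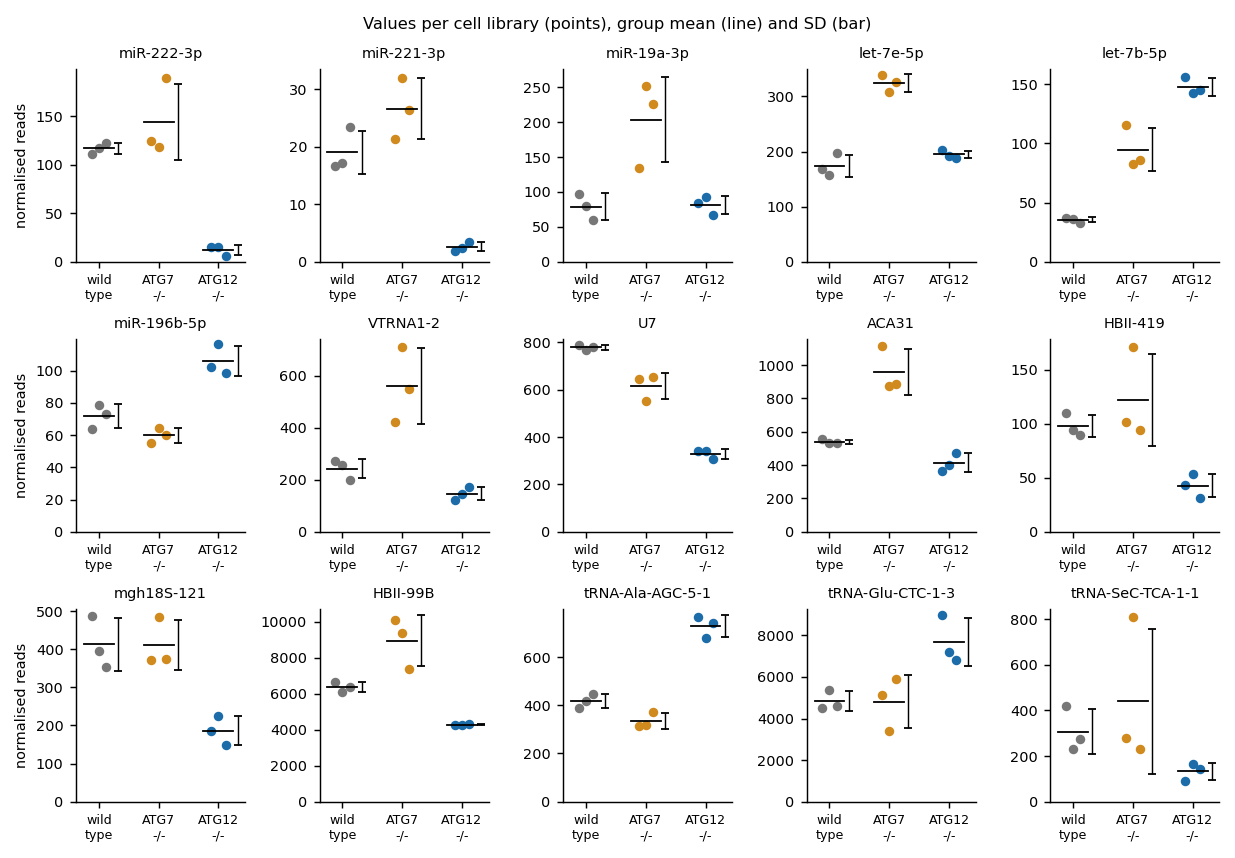
Normalised reads of 15 small RNAs in each wild-type, ATG7-/- and ATG12-/- cell library (points), with the mean (line) and SD over 3 libraries (bar) of each group, each panel on its own linear axis from 0. miR-222-3p and miR-221-3p were low in ATG12-/- cells only, miR-19a-3p, let-7e-5p and ACA31 were high in ATG7-/- cells, and the ATG7-/- libraries of tRNA-SeC-TCA-1-1 ranged from 233 to 808.

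The vault RNAs, short RNAs made by RNA polymerase III that lie in the vault particle, did not move together. VTRNA1-1 is known for binding the autophagy receptor p62 (SQSTM1). VTRNA1-2 was at 122, 144 and 171 in ATG12-/- cells and at 423, 711 and 548 in ATG7-/- cells. Wild-type cells, at 271, 255 and 200.1, lay between the knockouts, and no values overlapped. The difference was -1.92 (SE 0.20, limma adjusted p = 4.51e-05), a 3.78-fold lower level that was called under every alternative. VTRNA1-3 was at 163, 254 and 231 against 311, 456 and 321, a difference of -0.75 (SE 0.21, adjusted p = 0.0252). It lost its call with library totals (-0.61, adjusted p = 0.0693), with microRNA factors (-0.47, adjusted p = 0.163), without ATG7-/- replicate 2 (-0.57, adjusted p = 0.0902) and without ATG12-/- replicate 1 (-0.56, adjusted p = 0.117).

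VTRNA1-1 was at 389.9, 291 and 308 in ATG12-/- and 293, 191 and 238 in ATG7-/- cells, values that overlapped. Its difference of 0.46 (SE 0.21, limma adjusted p = 0.139) was called as higher with microRNA factors alone (0.74, adjusted p = 0.041). Wild-type cells held 451, 668 and 389.9, above every ATG7-/- value. Against wild type VTRNA1-1 was at -0.58 (SE 0.21) in ATG12-/- and -1.04 (SE 0.21) in ATG7-/- cells. VTRNA2-1 held 2 reads over the 6 libraries and was not tested.

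U7, the small nuclear RNA that trims the ends of histone mRNAs, was at 339.7, 339.7 and 306 in ATG12-/-, at 643, 552 and 652 in ATG7-/- and at 789, 769 and 778 in wild-type cells. The order was wild type above ATG7-/- above ATG12-/- with no overlap. The difference between the knockouts was -0.90 (SE 0.13, limma adjusted p = 0.000495), called under every alternative. Of the 5 spliceosomal snRNAs only U4 was called, at 526, 537 and 506 against 739, 716 and 697 (-0.46, SE 0.12, adjusted p = 0.0245). U4 lost that call with library totals (-0.32), with microRNA factors (-0.18), and without ATG7-/- replicate 2 or any 1 of the 3 ATG12-/- replicates (-0.43 to -0.47). U1, which recognises 5′ splice sites, was at -0.05 (SE 0.14), U2 at -0.07 (SE 0.16), U5 at -0.40 (SE 0.16, adjusted p = 0.103) and U6 at 0.21 (SE 0.16). U6 was called as higher without ATG7-/- replicate 3 (0.37, adjusted p = 0.0402).

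Among the Y RNAs, which bind the Ro60 protein, RNY5 was at 5231, 6631 and 4431 in ATG12-/- and 6793, 10978 and 8547 in ATG7-/- cells. The values did not overlap, and the difference was -0.68 (SE 0.20, limma adjusted p = 0.0301). It was called with the deposited scaling and by DESeq2 but not with the 3 other scalings or by edgeR, and was lost without ATG7-/- replicate 2 (-0.51), ATG12-/- replicate 1 (-0.67) or ATG12-/- replicate 3 (-0.55). RNY1 was at -0.25 (SE 0.16), RNY4 at -0.38 (SE 0.17) and RNY3, the most abundant, at -0.01 (SE 0.14), none of them called. RNY1 was called as lower without ATG7-/- replicate 3 (-0.40, adjusted p = 0.0334). The telomerase RNA hTR was at 32.8 to 44.1 against 35.7 to 42.01 (0.03, SE 0.20).

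Lower calls in ATG12-/- cells were most numerous among C/D box snoRNAs. Of 272 tested snoRNAs and small Cajal body RNAs (scaRNAs, which guide modification of snRNAs), 74 were lower and 1 was higher, that is 27.2% against 14.4% called lower over all features. By class, 53 of 150 C/D box snoRNAs (35.3%), 17 of 98 H/ACA box snoRNAs (17.3%) and 4 of 24 scaRNAs (16.7%) were lower, the last 2 shares being near the 14.4% over all features, with medians of -0.32, -0.19 and -0.12. With microRNA factors those medians were -0.05, 0.09 and 0.15, and 13, 3 and 0 were called lower, so the direction of the H/ACA and scaRNA medians rests on the scaling. The scaRNA median was also above 0 with library totals (0.02). Lower C/D box snoRNAs numbered 33 with library totals, 34 with TMM factors from all features, 35 by edgeR, 35 with no filter on low values and 30 in the fit of knockout libraries alone, which held 11 lower H/ACA box snoRNAs and 2 lower scaRNAs. The number of lower C/D box snoRNAs was 25 without ATG12-/- replicate 1, 26 without ATG12-/- replicate 3, 29 without ATG7-/- replicate 2 and 32 without ATG7-/- replicate 1. For H/ACA box snoRNAs it was 9 without ATG12-/- replicate 1, 9 without ATG7-/- replicate 2, 10 without ATG7-/- replicate 1, 11 without ATG12-/- replicate 2 and 33 without ATG7-/- replicate 3, and for scaRNAs it was 7 without that library.

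The snoRNA of largest fold was HBII-419 (SNORD98, in CCAR1), at 43.1, 53.4 and 31.5 in ATG12-/- and 101, 171 and 94.2 in ATG7-/- cells. Wild-type cells held 109.6, 94.3 and 89.8, so the ATG12-/- libraries were the low ones, with a difference of -1.48 (SE 0.23, limma adjusted p = 0.0012). HBII-296B (SNORD91B, in TSR1) was at 245, 369.7 and 445 against 871, 1137 and 560.4 (-1.26, SE 0.25, adjusted p = 0.00516). U62A (SNORD62A, in PRRC2B), whose 86 bases are identical to those of U62B, was at 515, 521 and 385 against 1036, 1339.7 and 675 (-1.06, SE 0.21, adjusted p = 0.00556). For both, every ATG12-/- value also lay below every wild-type value. ACA39 (SNORA71E, in SNHG11) was at 120.3, 119.7 and 124 against 334, 329 and 193 (-1.18, SE 0.19, adjusted p = 0.00144), and here wild-type cells, at 148 to 193, lay between. HBII-99B, in ZFAS1, was the most abundant of these, at 4248, 4280.1 and 4299 against 10107, 9394 and 7348 (-1.05, SE 0.14, adjusted p = 0.000471). All 5 were called under every alternative. The 1 higher snoRNA, HBI-43 (SNORD17, in SNX5, named after its values were seen), was at 220.0, 216 and 205 against 173, 112 and 153 (0.57, SE 0.18, adjusted p = 0.0395), and lost its call without ATG7-/- replicate 2 (0.39) or any 1 of the ATG12-/- replicates (0.55 to 0.60).

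The lower snoRNAs were unevenly spread over host genes, and the counts stand beside 14.4% of all features called lower. In RPL23A, a ribosomal protein gene, all 4 tested snoRNAs were lower, with a median of -0.84. mgh18S-121 (SNORD4A) was at 185, 225 and 149 in ATG12-/-, at 373, 486 and 373 in ATG7-/- and at 488, 396 and 353 in wild-type cells (-1.15, SE 0.18, limma adjusted p = 0.00119). Its neighbour Z17B (SNORD4B) was at 1232, 1564 and 1391 against 2916, 3786 and 2291, with wild-type cells at 2724 to 3166 (-1.08, SE 0.18, adjusted p = 0.00144). ATG12-/- cells were the low group for both, and both calls held throughout. U42B was at -0.60 (SE 0.13, adjusted p = 0.00825) and U42A at -0.43 (SE 0.13, adjusted p = 0.0368), and U42A lost its call when any 1 of the 6 libraries except ATG7-/- replicate 3 was left out (-0.37 to -0.48), with each other scaling (-0.15 to -0.33) and by edgeR (-0.33). With microRNA factors the median was -0.56 and 2 of the 4 were called.

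In RABGGTB, a subunit of a prenyl transferase, all 3 tested snoRNAs were lower with a median of -0.77, led by U45A at 568, 826 and 866 against 1763, 2277 and 1172 (-1.18, SE 0.22, limma adjusted p = 0.00418). With wild-type cells at 1702 to 2081, the ATG12-/- libraries again formed the low group. Without ATG12-/- replicate 1, ATG7-/- replicate 1 or ATG7-/- replicate 2, U45A alone of the 3 was called. Likewise 1 of the 3 was called with library totals, with either set of TMM factors, by edgeR and with knockout libraries alone. In RPL17 all 3 were lower with a median of -0.55, led by U58B at 318, 505 and 524 against 809.6, 1075 and 635 (-0.90, SE 0.22, adjusted p = 0.0122). Here none was called without ATG12-/- replicate 1 or with microRNA factors. The count was 1 without ATG12-/- replicate 3 or ATG7-/- replicate 2, with library totals, with TMM factors from all features, by edgeR and with knockout libraries alone.

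In SNHG1, a non-coding host, 4 of 8 were lower with a median of -0.56, beside 14.4% called lower over all features. U26 was at 3767, 5097 and 4988 against 8783, 9752 and 6742 (-0.86, SE 0.18, limma adjusted p = 0.00589), and U28 at 539.2, 859.6 and 731 against 1305, 1124 and 1033 (-0.72, SE 0.20, adjusted p = 0.0234). U28 lost its call with microRNA factors (-0.44, adjusted p = 0.140) and without ATG7-/- replicate 1 (-0.63, adjusted p = 0.0579), ATG12-/- replicate 1 (-0.53, adjusted p = 0.115) or ATG12-/- replicate 3 (-0.75, adjusted p = 0.0506). U22, of the same host and needed for cleavage of the ribosomal RNA precursor, was not called (-0.51, SE 0.26, adjusted p = 0.179), but was called as lower without ATG12-/- replicate 1 (-0.81, adjusted p = 0.0447). Of the 8, 1 was called without ATG12-/- replicate 3, and 1 with microRNA factors, which gave a median of -0.28. In SNHG17, 3 of 4 were lower with a median of -0.67, and none of the 4 was called with microRNA factors. Against wild type the SNHG17 medians were 0.37 in ATG7-/- and -0.30 in ATG12-/- cells.

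Other hosts showed no calls. In GAS5, a non-coding host with 10 tested snoRNAs, none was called, the median was 0.03 and the range -0.53 to 0.34. With other settings that count changed: 4 were lower without ATG7-/- replicate 3, 3 were higher without ATG7-/- replicate 1 or with microRNA factors, and 2 were higher with library totals. None of 5 was called in NOP56 (median 0.15), none of 4 in RPL4 (-0.10) and none of 4 in SNHG12 (0.14). Over all ribosomal protein hosts 20 of 56 were lower and none higher, with a median of -0.31, beside 35.3% lower among C/D box snoRNAs alone. The 56 include H/ACA box snoRNAs such as ACA27, so the share given above for all snoRNAs and scaRNAs is the nearer comparison. The count of 20 fell to 7 without ATG12-/- replicate 1 and to 9 without ATG12-/- replicate 3 or ATG7-/- replicate 2. It was 11 without ATG7-/- replicate 1 and 30 without ATG7-/- replicate 3. With microRNA factors it was 4, with a median of -0.03, and it was 10 with knockout libraries alone, 11 with library totals, 12 with TMM factors from all features, 13 by edgeR and 13 with no filter on low values.

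None of the 5 copies of U3, the abundant snoRNA of precursor cleavage, was called, and their differences ran from -0.05 to -0.01. The 5 copies share nearly all their reads. U8 (SNORD118), which acts in maturation of the large subunit RNAs, was at 4638, 4551 and 4318 against 7212, 6929 and 6664 (-0.62, SE 0.13, limma adjusted p = 0.00557). ATG7-/- values lay close to the wild-type ones of 6468 to 7069, and ATG12-/- values lay below both, although with microRNA factors the call was lost (-0.35, adjusted p = 0.137). U8 was the only 1 of 12 other precursor cleavage snoRNAs to be called. The scaRNAs U87 and U88, which lie in introns of the autophagy gene ATG16L1, were at -0.32 (SE 0.22) and 0.01 (SE 0.29).

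**Figure D3:**
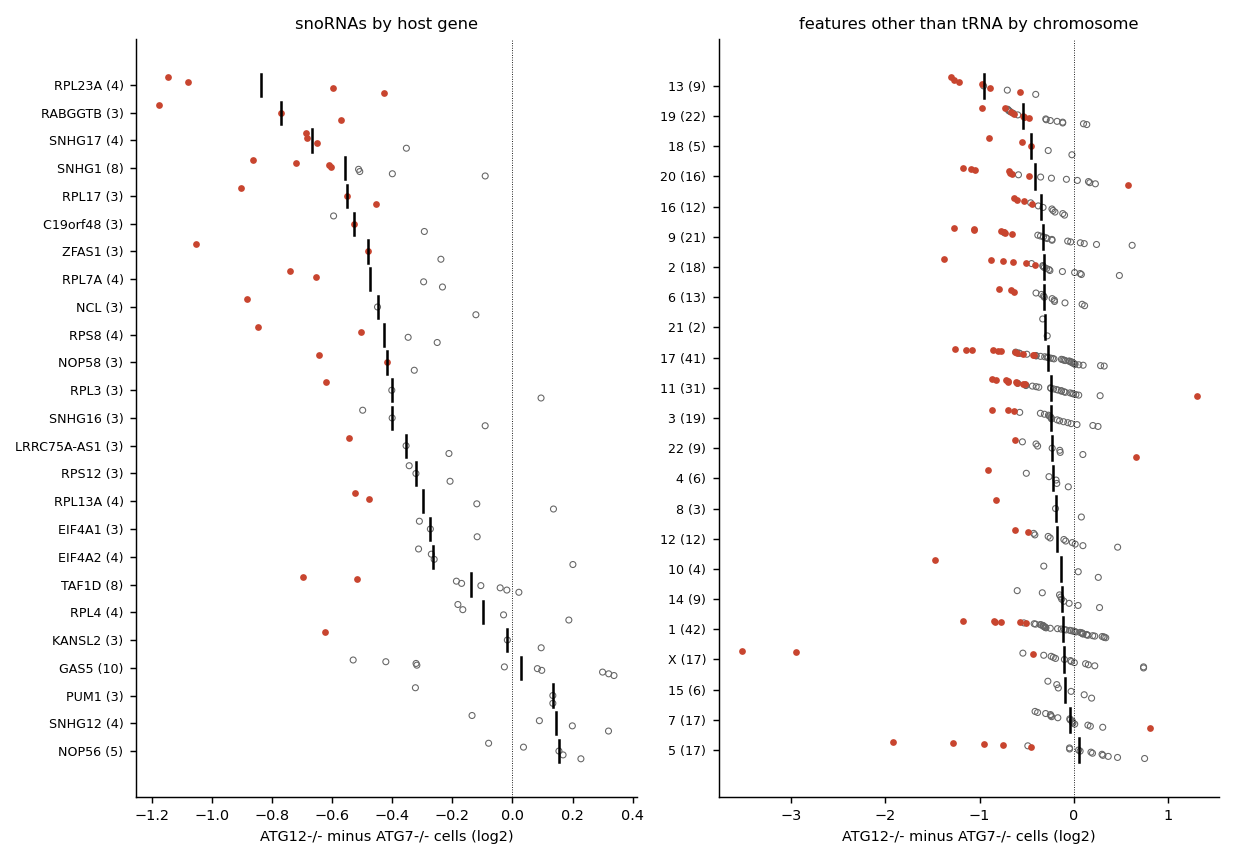
Difference of every tested snoRNA (left, by host gene with at least 3 tested) and of every tested feature other than tRNA genes (right, by chromosome), ATG12-/- minus ATG7-/- cells on the log2 scale. Red points were called, open points were not, black bars are medians and numbers in brackets count features: RPL23A has the lowest host median (-0.84), NOP56 the highest (0.15), and chromosome 13 the lowest chromosome median (-0.96).

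tRNA genes moved in both directions. Of 457 tested, 43 were higher and 25 lower in ATG12-/- cells, with a median of 0.08. That is 9.41% higher and 5.47% lower, beside 5.63% and 14.4% over all features. With microRNA factors 108 were higher and 4 lower with a median of 0.35 and with knockout libraries alone 18 and 13, while library totals gave 66 and 12. TMM factors from all features gave 61 and 13. All 43 higher calls and 4 of the 25 lower ones held under all 5 other scalings and tools. The numbers were 20 and 5 without ATG12-/- replicate 1, 18 and 11 without ATG7-/- replicate 2, 28 and 13 without ATG12-/- replicate 3 and 28 and 19 without ATG12-/- replicate 2, and without ATG7-/- replicate 1 there were 44 lower. Genes of 1 tRNA family have near-identical sequences and largely hold the same reads, so they are not independent. With copies of 1 RNA summed, 681 sets remained over all classes, of which 37 were higher and 113 lower.

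Apart from 3 genes of low level, the highest folds were those of alanine tRNA genes. tRNA-Ala-AGC-5-1 was at 768, 678 and 739.8 in ATG12-/- cells, at 312, 319 and 373 in ATG7-/- cells and at 389, 418 and 447 in wild-type cells. ATG12-/- values were the high ones, by 1.12 (SE 0.13, limma adjusted p = 0.000183), a 2.18-fold difference. tRNA-Ala-AGC-7-1 was at 1269, 1285 and 1305 against 592, 651 and 733 (0.97, SE 0.13, adjusted p = 0.000471), and tRNA-Ala-AGC-2-2 at 1355, 1360.1 and 1402 against 652, 698 and 804 (0.94, SE 0.13, adjusted p = 0.000471). These genes lie on chromosome 6 in the RefSeq annotation of GRCh38.p14, at chr6:28710589-28710660, chr6:28719704-28719775 and chr6:28863685-28863756, and were called under every alternative in which single genes were tested. Of 49 alanine tRNA genes 8 were higher and 2 lower, with a median of 0.27, beside 5.63% higher and 14.4% lower over all features. The number higher was 14 with library totals, with TMM factors from all features, by either count test and without ATG7-/- replicate 3. It was 21 with microRNA factors, and 5 without ATG12-/- replicate 3 or ATG7-/- replicate 2.

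All 8 glutamate tRNA genes with anticodon CTC were called higher, with a median of 0.70, beside 5.63% called higher over all features. The genes tRNA-Glu-CTC-1-1 to tRNA-Glu-CTC-1-7 are of 1 family, with differences of 0.70 to 0.74, so the 8 are not independent. None of the 8 was called without ATG12-/- replicate 1, without ATG7-/- replicate 2 or in the fit of knockout libraries alone. tRNA-Glu-CTC-1-3 was at 8978, 7191 and 6817 in ATG12-/-, at 5116, 3423 and 5894 in ATG7-/- and at 4506, 5395 and 4609 in wild-type cells. ATG12-/- values lay above all others, with a difference of 0.70 (SE 0.19, limma adjusted p = 0.0247). Without ATG12-/- replicate 1 it was 0.58 (adjusted p = 0.115), without ATG7-/- replicate 2 it was 0.47 (adjusted p = 0.0802). tRNA-Glu-TTC-4-2, at 6263, 5190.3 and 4454 against 3443, 1908 and 4120.4, did likewise (0.81, SE 0.24, adjusted p = 0.0301): without ATG7-/- replicate 2 it was 0.48, without ATG12-/- replicate 1 it was 0.68 and without ATG12-/- replicate 2 it was 0.81, with adjusted p of 0.0849, 0.124 and 0.0624.

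Proline tRNAs were higher in 7 of 21 genes, with a median of 0.37, beside 5.63% called higher over all features. tRNA-Pro-TGG-3-5 was at 2346, 2229.7 and 2903 against 1379.6, 1264 and 1752 (0.77, SE 0.17, limma adjusted p = 0.00825), and wild-type cells, at 1851 to 2495, were nearer to ATG12-/- cells. The count was 2 without ATG12-/- replicate 3 or ATG7-/- replicate 2, without ATG12-/- replicate 2 it was 3, and without ATG12-/- replicate 1 it was 4. It was 16 with microRNA factors (median 0.64), 3 with no filter on low values and 2 with knockout libraries alone. Of 12 tyrosine tRNA genes 3 were higher, among them tRNA-Tyr-GTA-7-1, at 94.6, 61.5 and 79.0 against 40.4, 40.9 and 44.3 (0.87, SE 0.19, adjusted p = 0.00814), and tRNA-Tyr-GTA-4-1, at 195.6, 153 and 157 against 99.7, 72.1 and 117 (0.82, SE 0.19, adjusted p = 0.00955). Wild-type cells, at 29.9 to 39.5 and 80.3 to 105, were close to ATG7-/- cells for both.

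For other higher tRNAs it was ATG7-/- cells that stood apart from wild type. tRNA-Asn-GTT-9-1 was at 322.98, 324 and 348 in ATG12-/-, at 208, 181 and 244 in ATG7-/- and at 353, 365 and 335 in wild-type cells (0.66, SE 0.14, limma adjusted p = 0.00658). tRNA-Ile-TAT-1-1 was at 185, 143 and 166 against 101, 87.6 and 114, with wild-type cells at 131 to 175 (0.70, SE 0.16, adjusted p = 0.0107). tRNA-Phe-GAA-6-1, a gene of low level, was at 23.8, 29.1 and 30.8 against 5.77, 5.73 and 9.99, with wild-type cells at 18.3 to 24.8 (1.86, SE 0.26, adjusted p = 0.000495). In all 3 the ATG7-/- libraries formed the low group, and the calls held under every alternative in which the single genes were tested. tRNA-Phe-GAA-6-1 was not tested under the higher filter.

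Lower tRNAs included those for glutamine, lysine, isoleucine and selenocysteine. tRNA-SeC-TCA-1-1, which inserts selenocysteine at UGA codons, was at 91.4, 164 and 145 in ATG12-/- and at 278, 808 and 233 in ATG7-/- cells, with ATG7-/- replicate 2 far above the other libraries. The difference was -1.52 (SE 0.38, limma adjusted p = 0.0146) and was lost without ATG12-/- replicate 1 (-1.27, adjusted p = 0.0631). Of 17 glutamine tRNA genes with anticodon CTG 7 were lower, with a median of -0.65, beside 14.4% called lower over all features. tRNA-Gln-CTG-2-1 was at 315, 534 and 482 against 661, 1531 and 811 (-1.11, SE 0.27, adjusted p = 0.0126), and without ATG12-/- replicate 1 none of the 17 was called (-0.88 and adjusted p = 0.0609 for that gene). With microRNA factors 1 of the 17 was called, with a median of -0.38.

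Lysine tRNAs with anticodon CTT were lower in 6 of 16 genes, beside 14.4% called lower over all features. None of the 16 was called with library totals, with either set of TMM factors or with knockout libraries alone. With no filter on low values 1 was called. tRNA-Lys-CTT-2-2 was at 2539, 3015 and 2084 against 2759, 9698 and 4729 (-0.996, SE 0.33, limma adjusted p = 0.0467), so the groups overlapped and ATG7-/- replicate 2 stood apart. Without that library the difference was -0.52 (adjusted p = 0.150), and it also lost its call without ATG7-/- replicate 3 (-1.04) or any 1 ATG12-/- replicate (-0.86 to -1.13), and with each other scaling. None of the 16 was called as lower without ATG12-/- replicate 1, ATG12-/- replicate 3, ATG7-/- replicate 2 or ATG7-/- replicate 3, 2 were without ATG12-/- replicate 2 and 10 without ATG7-/- replicate 1. All 3 isoleucine tRNA genes with anticodon GAT were lower, with a median of -1.36, at low levels: tRNA-Ile-GAT-1-3 was at 4.50, 3.34 and 5.59 against 17.3, 12.3 and 14.3 (-1.52, SE 0.32, adjusted p = 0.00658). No gene was called among the 25 arginine, 27 serine, 9 histidine, 9 initiator methionine and 5 tryptophan tRNA genes, with medians of 0.09, -0.14, 0.06, 0.31 and 0.04.

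**Figure D4:**
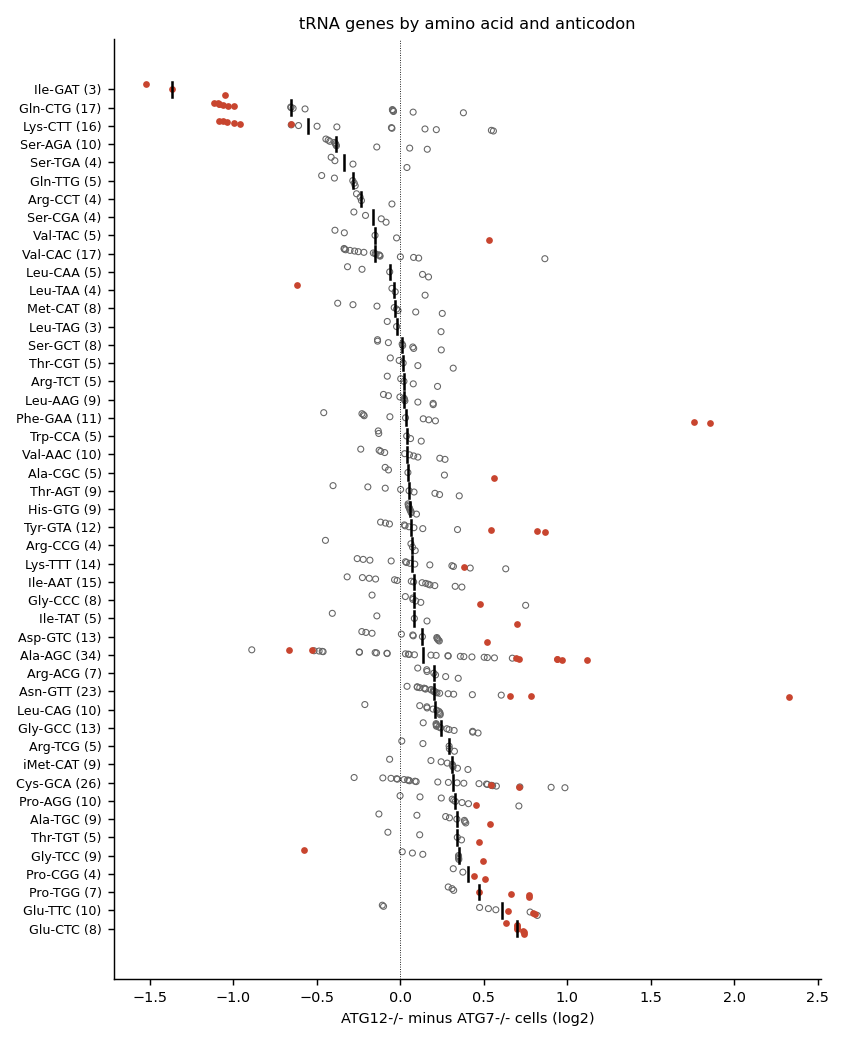
Difference of every tested tRNA gene, ATG12-/- minus ATG7-/- cells on the log2 scale, by amino acid and anticodon with at least 3 tested genes (number in brackets). Red points were called, open points were not, and black bars are medians, from -1.36 for Ile-GAT to 0.70 for Glu-CTC.

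The RNA classes were also compared as shares. Of all reads assigned to features, 52.3% ± 0.766 in ATG12-/- and 56.2% ± 3.64 in ATG7-/- cells came from C/D box snoRNAs (SD, n = 3 each), beside 61.4% in wild-type cells. An exact two-sided permutation test gave p = 0.2 for n = 3 against 3, where 0.1 is the smallest p possible. tRNA took 31.7% ± 0.831 and 27.0% ± 3.92, beside 24.0% in wild-type cells (exact permutation p = 0.2). H/ACA box snoRNAs took 5.82% and 6.57% (exact permutation p = 0.3) and microRNAs 2.84% and 2.77% (p = 0.5, exact permutation). The ATG7-/- tRNA shares were 23.0%, 27.2% and 30.8%, and the highest of them overlapped the ATG12-/- shares of 32.4%, 31.99% and 30.8%. Genes of 1 tRNA family hold many of the same reads, and with each family counted once the tRNA share was 18.2% ± 0.327 against 15.2% ± 2.29, values that did not overlap (exact permutation p = 0.1). The microRNA share rested in part on miR-6724-5p, an entry in the ribosomal DNA repeats: without it the shares were 1.86% and 1.94%, the ATG7-/- one now being the higher (exact permutation p = 0.7). U7, at 0.0379% and 0.0649%, and the vault RNAs, at 0.0799% and 0.122%, did not overlap and reached p = 0.1 in the exact permutation test. The smallest exact permutation p adjusted over the 10 classes (Benjamini-Hochberg) was 0.5 with all features. It was 0.333 with each tRNA family counted once, and likewise without miR-6724-5p. With 3 libraries against 3 no class could pass 0.05, so these tests do not show that any share was alike.

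The same contrast of the clones was then read in the extracellular vesicles they released, from 6 libraries that the comparison in cells did not use. Of 850 features tested in vesicles 226 were higher and 198 lower in ATG12-/- vesicles, which is 49.9% called, with 26.6% called higher and 23.3% called lower. Of the 159 features called in cells and tested in vesicles, 32 were called the same way, 58 the opposite way and 69 were not called. The 32 are 20.1% of those cell calls and 7.75% of the vesicle calls among the 801 features tested in both. Of 113 features lower in cells, 25 (22.1%) were lower and 45 (39.8%) higher in vesicles, beside 24.1% and 27.5% of all 801. The interaction, the vesicle difference minus the cell difference, was called for 387 of 905 features (42.8%) and for 101 of the 159. The 159 were chosen by the cell difference, which is part of the interaction, so that choice can raise their count.

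Of 67 snoRNAs and scaRNAs lower in ATG12-/- cells and tested in vesicles, 44 were higher and none was lower in ATG12-/- vesicles. The vesicle difference was above 0 for 65. Of all 801 features tested in both, 27.5% were higher in vesicles. Values above 0 in vesicles were not particular to the snoRNAs lower in cells. Over all tested members, called in cells or not, the vesicle medians were 0.95 for C/D box and 1.14 for H/ACA box snoRNAs. In cells those medians were -0.32 and -0.19. U26 stood at 6847, 6475 and 6903 normalised reads in ATG12-/- vesicles and at 2289, 2889 and 1769 in ATG7-/- vesicles. Its difference was thus 1.57 (SE 0.16) in vesicles and -0.86 in cells, and the interaction was 2.43 (limma adjusted p = 1.42e-06). U42A was at 1.54 in vesicles and -0.43 in cells, and U1, at -0.05 in cells, was at 0.85 (SE 0.13) in vesicles.

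miR-222-3p and miR-221-3p, in contrast, were lower in vesicles as in cells. miR-222-3p was at 17.9, 27.8 and 11.3 in ATG12-/- and 166, 153 and 145 in ATG7-/- vesicles, with wild-type vesicles at 135 to 179. That is -3.04 (SE 0.26, limma adjusted p = 5.22e-06), and miR-221-3p was at -2.55 (SE 0.29). miR-19a-3p, at 11.9 to 15.2 against 31.8 to 53.7, was lower in vesicles too (-1.56, SE 0.38, adjusted p = 0.00443). In the same cluster miR-19b-3p was lower (-0.66, SE 0.22, adjusted p = 0.0285). Not called in vesicles were miR-92a-3p (-0.11, SE 0.15, adjusted p = 0.599) and miR-17-5p (-0.33, SE 0.22, adjusted p = 0.254). miR-4485-3p was higher, by 2.41 (SE 0.33, adjusted p = 7.12e-05). The isoleucine GAT tRNAs had a vesicle median of -2.57 and the glutamine CTG tRNAs one of -0.93, both in the direction seen in cells. The isoleucine value is that of tRNA-Ile-GAT-1-3 (SE 0.70), at low levels of 0, 9.28 and 1.89 against 22.4, 17.5 and 13.3. Wild-type vesicles held 4.15 to 8.75, so this gene passed the filter only through the ATG7-/- vesicles. The glutamate CTC tRNAs, higher in cells, were lower in vesicles: tRNA-Glu-CTC-1-3 was at -0.47 (SE 0.08, adjusted p = 0.000615). VTRNA1-2 was lower in both, by -0.51 (SE 0.13) in vesicles and -1.92 in cells.

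**Figure D5:**
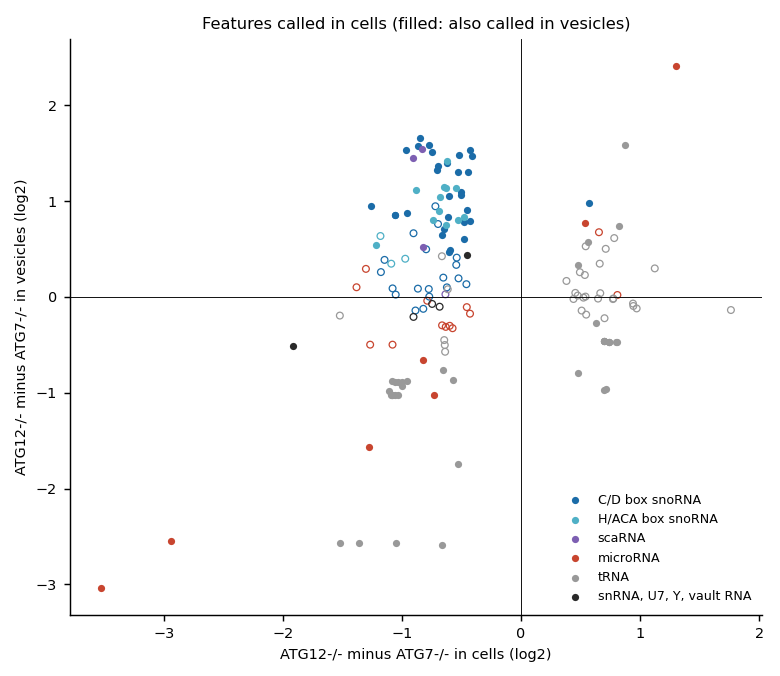
ATG12-/- minus ATG7-/- difference in cells (x) and in vesicles (y), both log2, for the 159 features called in cells and tested in vesicles, coloured by RNA class. Filled points were also called in vesicles: 65 of the 67 snoRNAs and scaRNAs lower in cells lie upper left, above 0 in vesicles, and miR-222-3p and miR-221-3p lie lower left.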

How the data were processed

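Small RNA-seq libraries were compared between 3 ATG12-/- and 3 ATG7-/- HEK293T cell cultures. Per the submitters' processing notes, the tools were cutadapt 2.3, Bowtie2 2.3, bedtools and DESeq2, with GRCh38 as the genome. The feature annotation, any filter and the treatment of reads with several matches are not given in the sources used here, and such reads can be shared among tRNA genes, gene copies and microRNA families. The deposited signal is a scaled read value per feature and library. Dividing it by the library's smallest step gave whole reads for 100% of values (tolerance 1e-06).

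Features with at least 10 normalised reads in 3 or more of the 9 cell libraries entered the test. limma 3.58.1 (R 4.3.3) was fitted with an intensity trend to log2(signal + 1) over the 9 libraries, with 1 mean per genotype. Adding 1 shrinks the differences of low features. Alternatives were other scalings, pseudocounts and filters, knockout libraries alone, a replicate block, each library left out, and edgeR 4.0.16 and DESeq2 1.42.0 on the recovered reads. The main test was tested on simulated data. edgeR and DESeq2 were not used for the values in the text unless named.

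Named features were the called ones of largest fold without overlap, the leading called and most abundant members of each list, and set RNAs such as U1 to U8, Y and vault RNAs; others are marked in the text. The members and lists were chosen with earlier results of these data known. Positions come from GENCODE 29 and RefSeq (GRCh38.p14).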

Additional observations from a re-analysis of the deposited data

Results flagged for a closer look

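For 31 named RNAs called in cells, the difference between the clones in vesicles was not the one in cells, by the test of that difference itself (limma interaction over all 18 libraries, adjusted p under 0.05). Values here are the ATG12-/- minus ATG7-/- difference in vesicles minus that in cells, on the log2 scale. The RNAs were chosen by their cell difference, which enters each value with its sign reversed. A sign opposite to that of the cell difference is therefore partly built in. In vesicles HBII-99B was at 0.02 and U102 at -0.14, so their values come from the cell difference.

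SnoRNAs lower in ATG12-/- cells all had positive values among these. The value was 2.43 for U26, 2.25 for HBII-419, 2.21 for HBII-296B, 1.97 for U42A, 1.92 for U62A, 1.82 for ACA39 and 1.76 for ACA31. It was 1.66 for U28, 1.57 for U58B, 1.53 for mgh18S-121, 1.44 for U45A, 1.37 for ACA27, 1.17 for Z17B, 1.09 for U42B and 1.08 for HBII-99B. U102 (0.74) and U8 (0.72) had the smallest values of these. HBII-419 did not pass the filter for the test in vesicles alone.

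Among other RNAs lower in ATG12-/- cells the value was 1.59 for miR-425-5p, 1.41 for VTRNA1-2, 1.33 for tRNA-SeC-TCA-1-1, 0.89 for U4, 0.75 for miR-24-3p and 0.69 for U7. miR-4485-3p, higher in both, differed by 1.11, with an adjusted p of 0.0492 (limma), close to the threshold.

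Of the RNAs flagged here, the tRNAs higher in ATG12-/- cells had negative values. These were -1.28 for tRNA-Glu-TTC-4-2, -1.16 for tRNA-Glu-CTC-1-3, -1.09 for tRNA-Ala-AGC-7-1 and -1.01 for tRNA-Ala-AGC-2-2. tRNA-Tyr-GTA-7-1, also higher in cells (0.87), was not flagged and was at 1.58 in vesicles. For tRNA-Ile-TAT-1-1 the value was -0.92, for tRNA-Ala-AGC-5-1 -0.82 and for tRNA-Pro-TGG-3-5 -0.79. A factor between cell and vesicle libraries largely cancels in these values. They rest on how the clones were scaled against each other within each kind of library. The values given are those with the deposited size factors only.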

How the results depend on the processing

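Of 56 named features called, 34 kept their call under every alternative in which they were tested, 22 lost it under at least 1, and none of the 72 named reversed. Fitting the knockout libraries without wild type gave 92 calls (22 higher, 70 lower) in place of 171 (48 and 123). Higher calls numbered 127 with TMM factors from microRNAs, 78 with library totals and 73 with edgeR's quasi-likelihood test, and lower calls 30 and 69 with those 2 scalings and 79 with TMM factors from all features. With 1 library left out there were 79 to 226 calls, 21 to 65 higher and 56 to 161 lower, fewest without ATG12-/- replicate 1 (79) and ATG7-/- replicate 2 (86) and most without ATG7-/- replicate 3 (226). The cause was not tested. Deviations of same-numbered libraries of the clones had correlations of 0.14, 0.25 and -0.20, beside -0.36 to 0.18 for the other pairs. With 3 libraries a group these values cannot tell whether libraries of 1 number share a batch. A replicate block gave 43 higher and 116 lower calls in cells, 374 calls in vesicles and 384 interaction calls. Pseudocounts, filters and summed copies moved no count over all features by more than 1.5 times, but with no filter on low values lower calls fell from 53 to 35 for C/D box snoRNAs, from 19 to 12 for microRNAs, from 25 to 16 for tRNA genes, from 5 to 2 for the miR-17-92 cluster and from 6 to 1 for lysine CTT tRNAs, and higher ones from 7 to 3 for proline tRNAs. The 3 libraries a group and 1 clone a genotype limit the precision, and miR-221-3p rested on 3 to 5 reads a library in ATG12-/- cells.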
